A study of Mus musculus with 20 samples.

Results

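A set of 10 growth factor and matrix-protein genes whose products act on hepatic stellate cells was followed in macrophages sorted from fibrotic mouse livers, namely Tgfb1, Tgfbi, Pdgfa, Pdgfb, Igf1, Vegfa, Osm, Hgf, Areg and Thbs1. They were chosen by gene symbol and make up 10 of the 59311 gene records in the deposited table. Each symbol matched a record, and 6 of the 10 genes (Tgfbi, Pdgfb, Igf1, Osm, Hgf and Thbs1) reached a mean of 10 normalized counts in at least 1 of the 4 groups and were tested. Tgfb1, Pdgfa, Vegfa and Areg did not reach it.

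All mice were male C57BL/6J animals aged 10 to 12 weeks, given CCl4 (0.6 ml/kg) 2 times weekly for 4 weeks, so the controls too carried the injury and no uninjured liver was compared. Around the last dose, 5 mice were injected with Ac-6-FP at 0.25 mg/kg and 5 with its vehicle, and livers were taken 2 days after the last CCl4. Ac-6-FP binds the antigen-presenting molecule MR1 without activating mucosal-associated invariant T (MAIT) cells. From each liver, monocyte-derived macrophages (MoMac), gated as CD11b+ F4/80+ cells without Ly6G, CD11c or CD3, were sorted into Ly6C hi and Ly6C low cells, giving 20 libraries in 4 groups of 5. The comparisons ask which growth factors differ between the recruited Ly6C hi and the Ly6C low cells of a liver, and whether blocking MAIT cells alters them in either subset.

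Stellate cells are the vitamin A storing pericytes of the liver sinusoid, which turn into collagen-producing myofibroblasts after injury. TGF-beta, stored in the matrix in a latent form, drives collagen synthesis, platelet-derived growth factors drive division and migration, and both reach stellate cells partly from macrophages. Macrophages also make ligands with other roles in repair, among them insulin-like growth factor 1, hepatocyte growth factor, which acts on hepatocytes through the receptor Met, and the IL-6 family cytokine oncostatin M.

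RefSeq promoter windows on GRCm38.p6, the build of the files (mm10), were matched by symbol for 7 of the 10 genes in the table used here. Those of the tested genes among them are given with the strand. Tgfbi passed the threshold between the subsets, and Igf1 and Hgf, which did not, are shown beside it. Each window holds 300 bases, 250 before and 50 after the annotated start, and capitals mark matches, on either strand, to the GC box GGGCGG, the CCAAT box CCAAT and the AP-1 site TGANTCA.
Tgfbi, chr13:56609336-56609635, plus strand: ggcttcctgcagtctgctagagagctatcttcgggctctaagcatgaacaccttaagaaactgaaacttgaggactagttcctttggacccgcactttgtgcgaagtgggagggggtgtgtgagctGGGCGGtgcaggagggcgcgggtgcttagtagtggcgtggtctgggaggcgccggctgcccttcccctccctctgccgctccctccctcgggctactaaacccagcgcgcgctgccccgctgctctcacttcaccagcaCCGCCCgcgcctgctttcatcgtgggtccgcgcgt
Igf1, chr10:87860861-87861160, plus strand: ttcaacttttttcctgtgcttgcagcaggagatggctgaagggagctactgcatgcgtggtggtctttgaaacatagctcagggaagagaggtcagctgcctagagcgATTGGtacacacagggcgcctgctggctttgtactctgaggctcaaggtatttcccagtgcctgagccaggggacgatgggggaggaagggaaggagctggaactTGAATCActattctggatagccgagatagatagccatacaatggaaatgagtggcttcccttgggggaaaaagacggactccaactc
Hgf, chr5:16553245-16553544, plus strand: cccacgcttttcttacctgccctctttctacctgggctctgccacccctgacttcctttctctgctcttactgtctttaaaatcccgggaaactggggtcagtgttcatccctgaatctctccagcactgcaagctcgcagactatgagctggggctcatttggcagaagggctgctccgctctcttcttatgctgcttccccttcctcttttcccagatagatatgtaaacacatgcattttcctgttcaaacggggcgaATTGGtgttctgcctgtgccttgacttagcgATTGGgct
Positions are those of the leftmost base, counted from the annotated start. The Tgfbi window held 2 GC boxes, at -124 and 16, and a GC box occurred in 35.7% of the 32851 windows in the table. The Igf1 window held a CCAAT box at -142 and an AP-1 site at -37, which occurred in 37.4% and 7.81% of all windows. The Hgf window held 2 CCAAT boxes, at 12 and 43. The letters TATAAA (13.6% of windows), AGATAA (11.2%) and CACGTG (7.15%) were not in these 3 windows, and none of the motifs overlapped another there. The RefSeq start of Igf1 lies 2846 bases inside the record that was counted, and that of Tgfbi lies 27 bases inside.

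Libraries held 5693049 to 18682437 reads counted on genes. The Ly6C low vehicle library of mouse 13 stood apart, with 5343 genes above 0 against 9017 to 15766 in the other libraries, and results that rest on it are given with and without that mouse. Values are normalized counts, which are reads divided by a size factor per library and not by gene length, so the level of a gene is compared between libraries and not with that of another gene. The macrophage genes Cd68, Adgre1 and Csf1r were above 0 in all 20 libraries. The Ly6C antigen gene Ly6c2 ranged from 4930.23 to 10011.74 normalized counts in Ly6C hi and from 283.61 to 1013.69 in Ly6C low libraries. Of 11 stellate cell and myofibroblast markers, Des, Lrat and Reln were listed at 0 in all 20 libraries, and the sum of the list was above 0 in 19 of them, at 0 to 971.9 normalized counts in Ly6C hi and 4.17 to 308.9 in Ly6C low libraries.

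Several lists of markers of other blood cells were higher in Ly6C low than in Ly6C hi libraries. The summed level of 10 markers of T, NK and innate lymphoid cells was 39553 to 86441 normalized counts in Ly6C low and 0 to 863.8 in Ly6C hi libraries. Mast cell and basophil markers (8 genes, such as Cpa3 and Mcpt8) summed to 2387 to 41801 in Ly6C low and 0 to 138.3 in Ly6C hi libraries, and 4 eosinophil markers to 0 to 19721 and 0 to 32.66. The sum of 9 neutrophil markers was higher in the Ly6C low library in 9 of 10 mice, at 10612 to 133215 (median 42492) against 9153 to 15700 (median 12856). That of 9 platelet markers was higher in 5 mice and lower in 5 (183.4 to 2151 in Ly6C low and 406.8 to 2251 in Ly6C hi libraries), and that of 9 monocyte and macrophage markers was lower in 7 of 10 mice (23375 to 79888 and 46507 to 74805). The monocyte and macrophage list includes Ly6c2, the gene of the sorted antigen, so its direction is set in part by the sort. Of the defining markers, Epx, Tpsb2 and Tpsab1 were listed at 0 in all 20 libraries. Dendritic cell markers (8.9 to 1017 in Ly6C hi and 263.9 to 3568 in Ly6C low libraries) and B and plasma cell markers (80.24 to 742.9 and 394 to 4838) were higher in the Ly6C low library in 9 of 10 mice. Endothelial (0 to 409.5 and 0 to 523.2) and hepatocyte markers (3973 to 11491 and 6827 to 13299) were higher there in 8 mice, and Kupffer cell markers (0 to 246.2 and 0 to 807.8) in 7. The part of these lists in the subset differences below was not tested. In RNA from sorted pools, fewer cells of a type and less RNA per cell cannot be told apart.

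**Figure D1:**
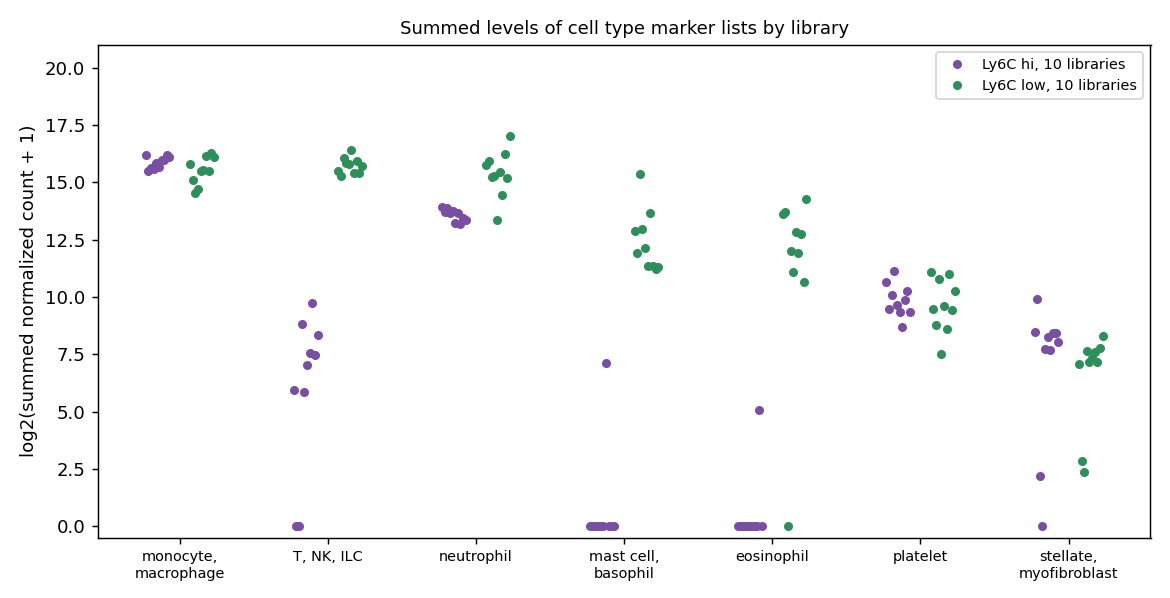
Summed normalized counts of 7 marker lists on a log2(sum + 1) axis, with a point for each of 10 Ly6C hi (purple) and 10 Ly6C low (green) libraries. T, NK and innate lymphoid cell, mast cell and basophil markers are higher in all Ly6C low libraries, whereas monocyte and macrophage, platelet and stellate cell lists overlap.

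Between the subsets, Tgfbi was lower within mice in Ly6C low than in Ly6C hi MoMac, and that call was made under each of 17 alternative settings. It was 1 of the 5 tested growth factor genes that reached the filter in both subsets. Pdgfb, the other tested gene, had more counts in Ly6C low MoMac and an adjusted p under the threshold, but it reached the filter through its Ly6C low groups alone, and its values are given as a description. Igf1, Hgf, Osm and Thbs1 did not pass the threshold. Over all genes, 900 of 17248 passed (5.22%), 588 of them higher in Ly6C low (3.41%) and 312 higher in Ly6C hi MoMac (1.81%). With genes detected per library as a covariate the split was 735 and 620 of 1355. The test was limma on the within-mouse difference of log2(normalized count + 1) over 10 mice, at an adjusted p under 0.05. Without mouse 13, Igf1 passed as well.

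**Figure D2:**
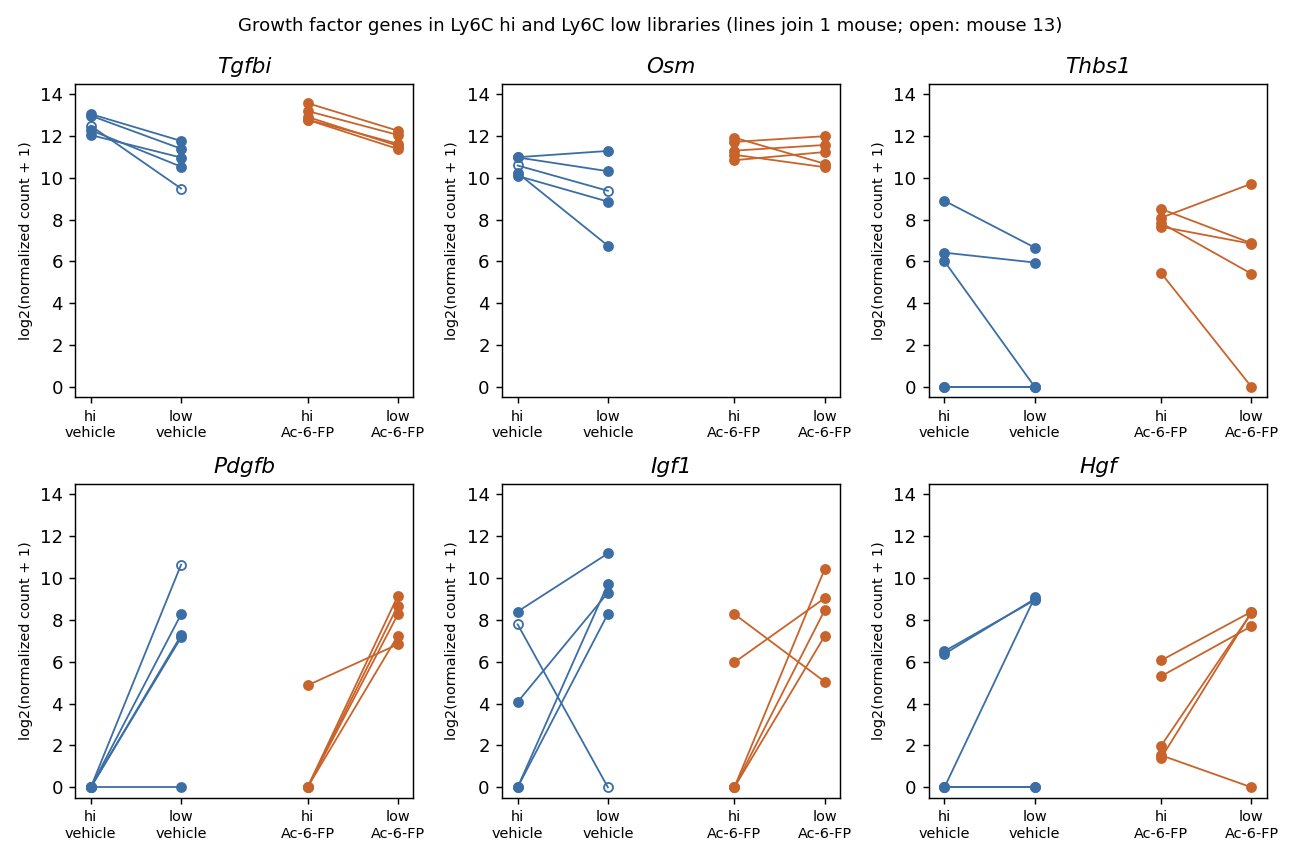
Log2(normalized count + 1) of the 6 tested genes in each library, with lines joining the Ly6C hi and Ly6C low library of a mouse (vehicle in blue, Ac-6-FP in orange, open circles for mouse 13). Tgfbi falls from Ly6C hi to Ly6C low in every mouse, Pdgfb is at 0 in 9 of 10 Ly6C hi libraries and above 0 in 9 of 10 Ly6C low libraries, and lines cross for Igf1, Osm, Hgf and Thbs1.

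Tgfbi encodes a secreted matrix protein that is induced by TGF-beta and binds collagens and integrins (GSMG0009836, mm10 chr13:56609558-56639562). In Ly6C hi vehicle libraries it was listed at 8453.60, 4212.14, 5726.84, 4949.57 and 8007.26 normalized counts in mice 11 to 15. The Ly6C low libraries of the same mice held 3470.89, 2000.87, 715.85, 1475.84 and 2676.85. In the Ac-6-FP mice 16 to 20, the Ly6C hi values were 7696.39, 9351.01, 6996.11, 7046.89 and 12137.74, and the Ly6C low values 2951.64, 4233.26, 2658.55, 3159.23 and 4867.98. Within each treatment no Ly6C low library reached the lowest Ly6C hi library (2.93% of genes did not overlap in vehicle and 6.79% in Ac-6-FP mice), whereas over both treatments the highest Ly6C low value, in mouse 20, exceeded the lowest Ly6C hi value, in mouse 12. Means over 10 mice were 7458 ± 2286 (SD) for Ly6C hi and 2821 ± 1234 (SD) for Ly6C low libraries, 2.64-fold higher in Ly6C hi MoMac.

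The Tgfbi log2 difference, Ly6C low minus Ly6C hi, was -1.51 (standard error 0.16, limma adjusted p = 0.000147) and was negative in 10 of 10 mice (3.85% of the tested genes had the same direction in all 10). A two-sided exact sign-flip permutation test gave p = 0.00195, the smallest that 10 mice allow. The difference was largest in mouse 13, at -3.00, and lay between -1.75 and -1.07 in the other mice. Without mouse 13 it was -1.35 (standard error 0.09, adjusted p = 8.142e-06). In the fit over all 10 mice, whose spread both treatments share, the vehicle contrast was -1.74 (adjusted p = 0.00144). The Ac-6-FP contrast was -1.28 (adjusted p = 0.0103), a call lost without mouse 16 or mouse 20 (adjusted p of 0.0591 and 0.0592). The exact sign-flip test over the 5 mice of a treatment gave p = 0.0625 in each. In vehicle mice 405 of all genes passed (2.35%) and in Ac-6-FP mice 507 (2.94%).

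Tgfb1 encodes the main TGF-beta of the liver, and its level was too low to test (GSMG0034184, chr7:25687000-25705076). It held 46 reads over 20 libraries and at most 20 in any of them, and 10 libraries were listed at 0. Its highest values, 12.49 and 8.20 normalized counts, were those of the Ly6C hi libraries of Ac-6-FP mice 16 and 20. The whole Tgfb1 record lies inside that of Pou2f2, a B cell transcription factor gene (0 to 491.30 normalized counts), and its first 2001 bases lie inside a record without a symbol, GSMG0068998 (chr7:25680728-25689000), which was listed at 248.36 to 1968.19. How reads in shared stretches were assigned is not given in the sources used here. The Tgfb1 values are therefore uncertain, and no absence of the transcript can be read from them.

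Thbs1 encodes thrombospondin-1, a matrix and platelet protein that can release TGF-beta from its latent form (GSMG0021600, chr2:118111876-118127132). Vehicle Ly6C hi libraries of mice 11 to 15 held 476.13, 84.56, 0.00, 0.00 and 63.30 normalized counts and the Ly6C low libraries 100.25, 60.71, 0.00, 0.00 and 0.00. Ac-6-FP Ly6C hi libraries of mice 16 to 20 held 42.47, 227.55, 362.50, 201.09 and 271.23 and the Ly6C low libraries 0.00, 41.50, 115.95, 113.93 and 840.39. Values were lower in the Ly6C low library in 7 of 10 mice, higher in mouse 20 and at 0 in both libraries in mice 13 and 14, and the subsets overlapped. The log2 difference of -1.74 (standard error 0.83, adjusted p = 0.317) did not pass the threshold across genes, and the exact permutation test of this gene alone gave p = 0.0391. The mean of Ac-6-FP Ly6C low libraries, 222.4 ± 349 (SD, n = 5), rests on mouse 20.

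Pdgfb encodes the B chain of platelet-derived growth factor, a mitogen of stellate cells (GSMG0014263, chr15:79995900-80014808). It was listed at 0 in all 5 vehicle Ly6C hi libraries and at 0.00, 0.00, 0.00, 0.00 and 28.32 normalized counts in those of Ac-6-FP mice 16 to 20. Ly6C low libraries of mice 11 to 15 held 142.55, 0.00, 1598.67, 152.92 and 308.14, and those of mice 16 to 20 held 306.52, 151.43, 408.82, 568.80 and 113.17. The Ly6C low library was thus higher in 9 of 10 mice, and both libraries were at 0 in mouse 12. Among Ac-6-FP mice the subsets did not overlap, and among vehicle mice they met at 0.

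Pdgfb reached the filter of a group mean of 10 through its Ly6C low groups alone, the highest Ly6C hi group mean being 5.664, so the direction of its group means was fixed by the filter. The call also stood with no filter. The p-values and fold values of this paragraph describe the gene and are no test of that direction. The fitted Pdgfb difference was 6.87 on the log2 scale (standard error 1.06, adjusted p = 0.00205), and the exact permutation test gave p = 0.00391. Its size depends on the count added before the logarithm and ranged from 4.22 to 10.4 over the alternatives. Where a library is at 0, a floor of 3 reads covers counting error only. In the vehicle Ly6C hi libraries, 42 to 870 of 6652 genes with a median of at least 100 normalized counts were also at 0. Against that floor, which is therefore no firm bound, the vehicle Ly6C low mean of 440.5 was 153-fold higher. It was 51.4-fold higher without mouse 13, whose library held 766 of all 3044 Pdgfb reads. Without that mouse the difference over the others was 6.37 (standard error 1.08, adjusted p = 0.00531). In the fit over all 10 mice, with a shared spread, the vehicle contrast was 6.67 (adjusted p = 0.0424), a call lost under 10 of 17 alternatives. The Ac-6-FP contrast was 7.06 (adjusted p = 0.0264), a call lost under 8. The exact sign-flip test over 5 mice gave p = 0.125 in vehicle and 0.0625 in Ac-6-FP mice. Over those alternatives the adjusted p reached 0.169 in vehicle and 0.162 in Ac-6-FP mice. The lost calls were those without mouse 11, 13, 14, 15, 16, 17, 18 or 19, without a filter and with edgeR in vehicle mice, and without mouse 11, 14, 15, 16, 17, 18 or 19 and with edgeR in Ac-6-FP mice.

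The mouse 13 Ly6C low library, the highest for Pdgfb, also had the highest mast cell and basophil sum (41801 normalized counts), with eosinophil and endothelial markers at 0. The next highest mast cell and basophil sums, 12930, 8057.6 and 7511.1 in mice 17, 14 and 11, stood beside Pdgfb values of 151.43, 152.92 and 142.55. The next highest Pdgfb values, in mice 19, 18, 15 and 16, stood beside sums of 2386.6 to 4532.3. The mouse 12 library, in which Pdgfb was at 0, had sums of 3864.2 for mast cell and basophil, 13186 for eosinophil, 231.68 for endothelial and 39553 for T, NK and innate lymphoid cell markers, the last being the lowest of the 10. Platelets and endothelial cells are other sources of platelet-derived growth factor. Platelet markers were higher in the Ly6C low library in 5 of 10 mice, and endothelial markers in 8, with a median of 329 in Ly6C low and 25.385 in Ly6C hi libraries. The part of these cells in the subset difference of Pdgfb was not tested. Pdgfa, which encodes the A chain, was above 0 in 2 libraries only, the Ly6C low libraries of Ac-6-FP mice 16 and 20, with 15 reads in all (GSMG0031265, chr5:138976049-138994953).

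Igf1 encodes insulin-like growth factor 1, a trophic factor that macrophages secrete during tissue repair (GSMG0003364, chr10:87858264-87937047). Vehicle Ly6C hi libraries of mice 11 to 15 held 15.93, 337.18, 220.60, 0.00 and 0.00 normalized counts and the Ly6C low libraries 632.74, 2321.75, 0.00, 313.84 and 844.08. Ac-6-FP Ly6C hi libraries of mice 16 to 20 held 310.38, 0.00, 0.00, 61.88 and 0.00 and the Ly6C low libraries 32.17, 149.18, 1377.09, 525.97 and 352.48. The Ly6C low value was the higher in 8 of 10 mice, and mice 13 and 16 went the other way. Over 10 mice the means were 654.9 ± 717.5 (SD) for Ly6C low and 94.6 ± 138.8 (SD) for Ly6C hi libraries, and the ranges overlapped.

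The Igf1 log2 difference of 4.42 (standard error 1.71, adjusted p = 0.204) did not pass the threshold, and the exact permutation test of the gene alone gave p = 0.0469. Without mouse 13 it was 5.85 (standard error 1.34, adjusted p = 0.0274), which passed. The 0 in the Ly6C low library of that mouse is a value in a library where 2765 of 6652 well expressed genes (a median of at least 100 normalized counts) were also listed at 0. With the other 16 alternatives, the Igf1 adjusted p was above 0.05.

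Hgf encodes hepatocyte growth factor, the mitogen of hepatocytes that also acts against fibrosis (GSMG0028853, chr5:16553494-16619439). Vehicle Ly6C hi libraries of mice 11 to 15 held 82.31, 0.00, 0.00, 0.00 and 90.00 normalized counts and the Ly6C low libraries 513.18, 541.41, 0.00, 0.00 and 494.35. Ac-6-FP Ly6C hi libraries of mice 16 to 20 held 38.72, 1.64, 1.89, 66.17 and 2.98 and the Ly6C low libraries 207.18, 328.66, 0.00, 335.80 and 324.66. Where Hgf was found in a Ly6C low library it stood at 207.18 or more, above every Ly6C hi library, and it was at 0 in the Ly6C low libraries of mice 13, 14 and 18. The value was higher in Ly6C low MoMac in 7 of 10 mice and lower in mouse 18. The log2 difference was 3.07 (standard error 1.08, adjusted p = 0.154, exact permutation p = 0.0156), and its adjusted p ranged from 0.0533 to 0.423 over the alternatives.

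Osm encodes oncostatin M, an IL-6 family cytokine of activated macrophages and neutrophils that acts on stellate cells and hepatocytes (GSMG0004836, chr11:4236785-4241026). Of the 10 growth factor genes, Osm and Tgfbi were those above 0 in all 20 libraries. Vehicle Ly6C hi libraries of mice 11 to 15 held 2021.36, 1088.63, 1537.16, 1196.79 and 2005.77 normalized counts and the Ly6C low libraries 2488.67, 463.36, 663.68, 106.69 and 1271.31. Ac-6-FP Ly6C hi libraries of mice 16 to 20 held 3870.68, 1830.26, 2194.84, 2514.54 and 3357.64 and the Ly6C low libraries 1630.02, 2400.42, 1452.40, 3032.45 and 4058.20. The Ly6C low value was lower in 6 mice and higher in 4, and the subsets overlapped. The log2 difference of -0.72 (standard error 0.32, adjusted p = 0.274, exact permutation p = 0.0664) did not pass the threshold.

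Vegfa, which encodes the main angiogenic factor of the sinusoid, and Areg, which encodes the epidermal growth factor receptor ligand amphiregulin, were near 0. Vegfa was above 0 in 3 libraries, with 38 of its 44 reads in the Ly6C low library of Ac-6-FP mouse 16 (GSMG0017585, chr17:46016996-46032377). A record without a symbol covers nearly the same span as Vegfa and was at 0 in 18 libraries, so that reads could be split between the records. Areg was above 0 in 3 Ly6C low libraries and in no Ly6C hi library, with 23 of its 27 reads in Ac-6-FP mouse 20 (GSMG0029413, chr5:91139599-91148432). At this depth no difference between subsets was detectable for Tgfb1, Pdgfa, Vegfa or Areg, since most values were at or under the floor of 3 reads.

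**Figure D3:**
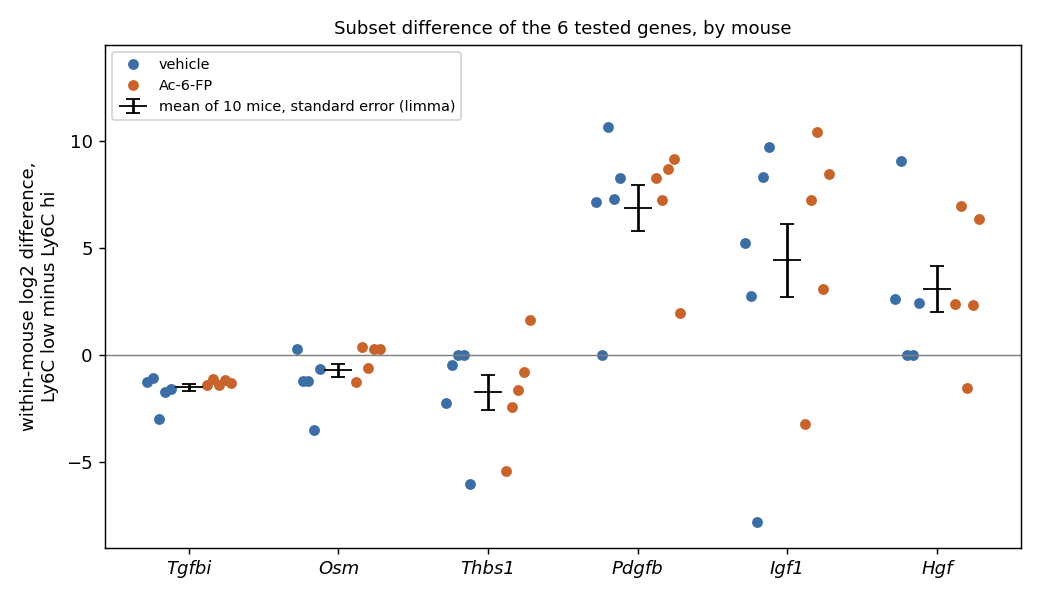
Within-mouse log2 difference, Ly6C low minus Ly6C hi, of each tested gene (vehicle mice in blue, Ac-6-FP mice in orange), with the mean over 10 mice and its limma standard error in black. Tgfbi is below 0 in all 10 mice and Pdgfb above 0 in 9, while the points of Igf1, Osm, Hgf and Thbs1 lie on both sides of 0.

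With Ac-6-FP, none of the 6 tested growth factor genes passed the threshold in either subset. Osm came nearest in Ly6C hi MoMac, at 0.80 on the log2 scale (standard error 0.26, adjusted p = 0.476), and was 1.88 (standard error 0.76, adjusted p = 0.528) in Ly6C low MoMac. In limma, 13 of 17248 genes passed in Ly6C hi (0.0754%) and 9 in Ly6C low MoMac (0.0522%). Without mouse 11 these counts were 133 and 103, and leaving out another mouse gave 0 to 44 and 0 to 33, with 0 in both without mouse 12. Without adjustment, 1506 and 1605 genes had p under 0.05, and edgeR on the recovered reads called 0 genes in both subsets. The median gene was itself higher with Ac-6-FP, by 0.35 in Ly6C hi and 0.91 in Ly6C low MoMac, and each difference below is read beside that shift. Without mouse 13 the shift was 0.289 in Ly6C hi and 0.352 in Ly6C low MoMac. Quantile normalization brought the median to -0.015 and 0.021.

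The number of genes above 0 moved with Ac-6-FP as well. Ly6C hi libraries had a median of 13622 genes (11096 to 15587) with Ac-6-FP and 9749 (9017 to 14606) with vehicle, and Ly6C low libraries 14084 (11156 to 15766) and 10379 (5343 to 15723), so that the ranges overlapped. Monocyte and macrophage markers summed to 46595 to 79888 normalized counts in Ac-6-FP and 23375 to 57040 in vehicle Ly6C low libraries. Neutrophil sums had medians of 10453 with Ac-6-FP and 13642 with vehicle in Ly6C hi, and 44838 and 40145 in Ly6C low libraries. In Ly6C low libraries mast cell and basophil medians were 2572 and 7511, and Kupffer cell medians 355.6 and 16.01. The part of gene number and markers in the differences with Ac-6-FP was not tested, beyond the fit with gene number as a covariate.

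Osm had a mean of 2754 ± 841.8 in Ac-6-FP and 1570 ± 437.5 in vehicle Ly6C hi libraries (SD, n = 5 each), 1.75-fold, and 4 of 5 Ac-6-FP libraries lay above every vehicle library. A two-sided exact permutation test gave p = 0.0317, where 5 mice against 5 allow 0.00794. In Ly6C low libraries the means were 2515 ± 1069 and 998.7 ± 933.9 (SD, n = 5 each), 2.52-fold, with 2 of 5 Ac-6-FP libraries above every vehicle library and an exact permutation p of 0.0397. Quantile normalization left the differences at 0.78 (adjusted p = 0.406) and 1.78 (adjusted p = 0.599). With genes detected per library as a covariate they were 0.41 and 1.12 (adjusted p = 1 and 0.949). Over all alternatives they stayed positive, from 0.41 to 0.936 in Ly6C hi and from 1.12 to 2.37 in Ly6C low MoMac.

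Tgfbi had a mean of 8646 ± 2172 in Ac-6-FP and 6270 ± 1875 in vehicle Ly6C hi libraries, and of 3574 ± 936.3 and 2068 ± 1063 in Ly6C low libraries (SD, n = 5 each). The log2 differences were 0.48 (standard error 0.24, adjusted p = 0.615, exact permutation p = 0.103) and 0.94 (standard error 0.40, adjusted p = 0.532, exact permutation p = 0.0556). In both subsets 2 of 5 Ac-6-FP libraries lay above every vehicle library. Without mouse 13 the differences were 0.46 and 0.60, again above the median gene. Quantile normalization left them at 0.51 (adjusted p = 0.406) and 0.84 (adjusted p = 0.599), and with the covariate they were 0.06 and 0.33 (adjusted p = 1 and 0.949).

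Thbs1 gave the largest differences of the main fit, 3.24 (standard error 1.80) in Ly6C hi and 3.25 (standard error 2.15) in Ly6C low MoMac, with adjusted p of 0.651 and 0.594 and exact permutation p of 0.143 and 0.206. They rest on libraries at 0, which were 2 of 5 vehicle and 0 of 5 Ac-6-FP libraries in Ly6C hi and 3 and 1 in Ly6C low MoMac. Thbs1 was not the largest under every alternative. With edgeR in Ly6C hi MoMac it was 0.78 and Pdgfb 5.73, and with the covariate in Ly6C low MoMac it was 1.90 and Pdgfb 1.94. For Pdgfb, Igf1 and Hgf the differences were 0.97, -1.20 and 0.68 in Ly6C hi and 1.37, 0.34 and 1.15 in Ly6C low MoMac, each smaller than or close to its standard error, which lay between 0.92 and 2.57. Group means ran the other way for Hgf in Ly6C hi (22.28 with Ac-6-FP and 34.46 with vehicle) and, in Ly6C low MoMac, for Pdgfb (309.7 and 440.5), Igf1 (487.4 and 822.5) and Hgf (239.3 and 309.8). Without mouse 13 the Pdgfb vehicle mean in Ly6C low libraries was 150.9, below that with Ac-6-FP. The Igf1 vehicle mean there rests in part on mouse 12, at 2321.75. The direction for Hgf turned in both subsets, and that for Pdgfb and Igf1 in Ly6C low MoMac, with edgeR or another alternative. For the genes under the filter no fit was made at this setting, and single-gene permutation tests were run. With Ac-6-FP and vehicle, Tgfb1 had means of 4.138 and 0.74 normalized counts in Ly6C hi and 1.43 and 1.202 in Ly6C low libraries, and Vegfa of 0.596 and 0.352, and 7.19 and 0. Pdgfa and Areg were at 0 in both Ly6C hi groups and had means of 2.79 and 0, and 4.608 and 0.356, in Ly6C low libraries. Exact permutation p for these 4 genes lay between 0.444 and 1 in both subsets. No tested growth factor gene had separate Ac-6-FP and vehicle groups, as 1.35% of genes did in Ly6C hi and 1.5% in Ly6C low MoMac.

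**Figure D4:**
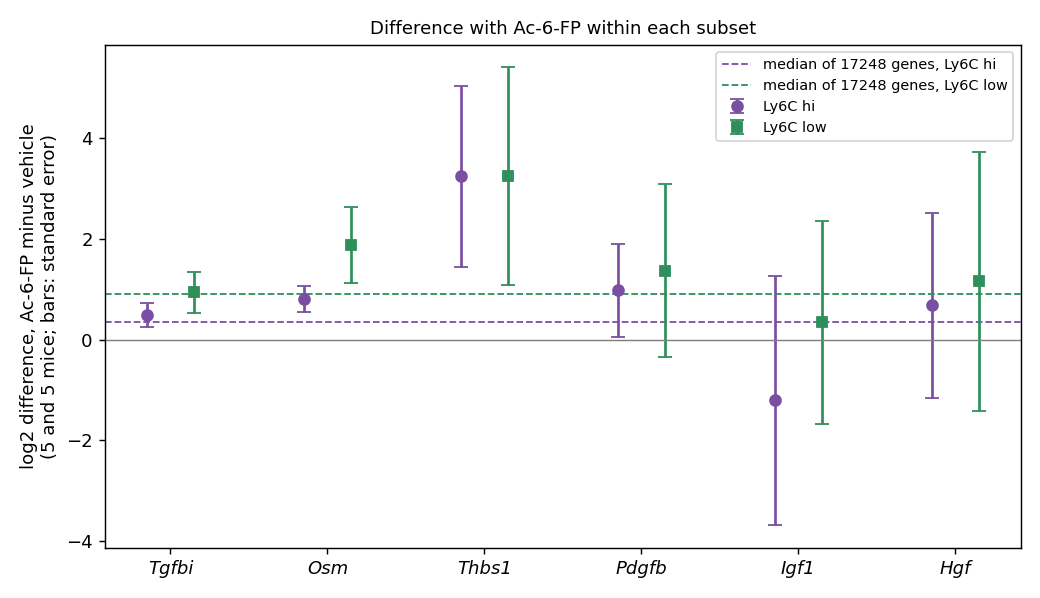
Log2 difference, Ac-6-FP minus vehicle, of the 6 tested genes in Ly6C hi (purple circles) and Ly6C low MoMac (green squares), 5 against 5 mice, with limma standard errors and, dashed, the median of 17248 genes in each subset. Osm lies above the dashed line of its subset, Tgfbi lies nearer to it with all mice included, and the bars of Pdgfb, Igf1 and Hgf span several log2 units.

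Whether the change with Ac-6-FP differed between the subsets was tested on the within-mouse differences, 5 Ac-6-FP against 5 vehicle mice. No gene passed in limma (0 of 17248, 0%), with 840 at an unadjusted p under 0.05, and edgeR called 0 genes with 313 at that p. For Osm the difference of changes was 1.07 (standard error 0.64, adjusted p = 0.83, exact permutation p = 0.159), larger in Ly6C low MoMac. For Tgfbi it was 0.46 (standard error 0.32, adjusted p = 0.83, exact permutation p = 0.175), and 0.14 without mouse 13. The other 4 tested genes lay between 0.00 and 1.55, with adjusted p of 0.932 or more. For Tgfb1, Pdgfa, Vegfa and Areg the exact permutation p of this difference lay between 0.444 and 0.833.

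Of the other genes of these pathways, 122 were in the table and 76 were tested, and 7 (9.21%) differed between the subsets, all 7 higher in Ly6C low MoMac, beside 5.22% of all genes (3.41% higher in Ly6C low MoMac). Without mouse 13, 11 of the 76 passed, again all higher in Ly6C low MoMac, beside 6.52% of all genes. Of the 7, and also among the 11, Mmp9 and Vegfc reached the filter through Ly6C low groups alone, as did 19 of the 76 in all, so the direction of their group means was fixed by the filter and they are given as a description. Of the 53 genes that reached it in both subsets, 5 passed. The share of all genes that reached it in both subsets was not computed, so no excess is read from these counts or those of the lists below. With the filter at a group mean of 100, 980 of 8784 genes passed. With Ac-6-FP none of the 76 passed in either subset. List medians below cover the genes that reached the filter in both subsets, whereas the median over all tested genes, 0.03 on the log2 scale, has no such limit. In the list of proteins that store, process or activate TGF-beta, 2 of the 9 genes that reached it in both subsets were higher in Ly6C low MoMac, and 0 were lower. Their median was 0.41, and 0.98 with the others of the 12 tested included.

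Those 2 were Mmp14 and Tgm2, and Mmp9 is described beside them. Mmp9, a gelatinase that can release TGF-beta, was listed at 0 in 9 of 10 Ly6C hi libraries and at 0 to 2158.5 normalized counts in Ly6C low libraries, with a fitted difference of 6.89 on the log2 scale (standard error 1.03). Mmp14, a membrane-bound metalloproteinase, reached 49.24 in Ly6C hi and 448.98 in Ly6C low libraries and differed by 4.99 (standard error 0.74, adjusted p = 0.00153). Tgm2, the transglutaminase that crosslinks matrix and latent TGF-beta, was 12.89 to 455.32 in Ly6C hi and 114.79 to 3114.84 in Ly6C low libraries and differed by 3.07 (standard error 0.54, adjusted p = 0.00534). Mmp14 and Tgm2 passed under each of 17 alternatives. They passed in the Ac-6-FP contrast (7.02 for Mmp14 and 4.50 for Tgm2) and not in the vehicle contrast (2.97 and 1.65). The test of the change with Ac-6-FP between the subsets did not pass for either (adjusted p = 0.83 for each). Mmp9 is also a gene of neutrophils, and the part of the markers of other cells in these differences was not tested.

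Among 18 tested receptors, Cd36, a scavenger receptor that binds thrombospondin-1, was higher in Ly6C low MoMac, with no overlap between 0 to 300.9 normalized counts in Ly6C hi and 2479.47 to 5305.25 in Ly6C low libraries (1.4% of genes did not overlap). Its log2 difference was 5.30 (standard error 0.73, adjusted p = 0.000917). Nrp2 and Tgfbr3, co-receptors of vascular endothelial growth factor and TGF-beta, reached the filter only through the Ly6C low Ac-6-FP libraries, with means of 44.01 and 29.47 normalized counts there. Their calls in the Ac-6-FP contrast (adjusted p = 0.0475 and 0.0255) are therefore given as a description. They were kept in 1 of 16 and 10 of 16 alternatives, with adjusted p of up to 0.824 and 0.909, and the change with Ac-6-FP did not pass between the subsets (adjusted p = 0.83 for both). The median of the 12 receptors that reached the filter in both subsets was 0.47. Met, the receptor of hepatocyte growth factor, was tested and did not pass, and Pdgfrb, the stellate cell receptor of the platelet-derived growth factor B chain, was too low to test.

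Of 9 tested ligands of the same families, Vegfc, a lymphatic growth factor that reached the filter through Ly6C low groups alone, had an adjusted p under the threshold, at 0 in 10 Ly6C hi libraries and 0 to 231.07 normalized counts in Ly6C low libraries (3.95, standard error 1.00, adjusted p = 0.0423). That call held under 6 of 16 alternatives and was lost with edgeR (the adjusted p ranged from 0.0187 to 0.341). Of the 9 ligands, 1 reached the filter in both subsets. Of 16 tested genes of TGF-beta signalling, Id2, an inhibitor of basic helix-loop-helix factors, passed, at 1120.74 to 3513.48 normalized counts in Ly6C hi and 3216.12 to 8931.98 in Ly6C low libraries. Its difference was 1.66 (standard error 0.14, adjusted p = 2.107e-05) and held under all 17 alternatives, and the list median was 0.61 over 13 genes. Id2 is also a gene of NK and innate lymphoid cells. The sum of T, NK and innate lymphoid cell markers was higher in the Ly6C low library in 10 of 10 mice. Their part in the Id2 difference was not tested.

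Of 12 tested hypoxia targets, which share a regulator with Vegfa, Ldha, a lactate dehydrogenase gene, passed with a difference of 0.49 (standard error 0.12, adjusted p = 0.0351), a call that held under 4 of 17 alternatives, and the list median was 0.49 over 11 genes. None of 9 tested genes that shed, bind or process these ligands, such as Adam17 and the Igfbp genes, passed, and the median was 0.062 over 7 of them. Of the 122 genes, 24 were listed at 0 in all 20 libraries, 13 of them ligands.

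Over 20 libraries, the 3 genes whose centred log2 values were nearest to those of Tgfbi, among 3623 genes above 0 in every library, were Lgals3, Pkm and Psap, at a mean absolute difference of 0.315, 0.321 and 0.342. For Osm they were Grn, Arhgdia and Ralb, at 0.325, 0.359 and 0.448. These are descriptions of likeness that share libraries, depth and scaling, and the other 8 growth factor genes were at 0 in at least 6 libraries and were not matched.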

How the data were processed

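RNA from 20 libraries, a Ly6C hi and a Ly6C low library from each of 10 livers, was analysed. According to the methods, the authors made libraries with a low-input kit, aligned 75-base reads with STAR 2.4.0 to mm10, took counts over constitutive regions of FAST DB genes and normalized with DESeq2. The deposited values are signal values, counts divided by a size factor per library, called normalized counts here. Dividing them by the smallest step of each library gave whole reads for 99.92% of values (tolerance 0.0061). Libraries held 5693049 to 18682437 reads on genes, and the floor of 3 reads behind a 0 covers counting error only.

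The number and letter of each column gave the mouse and the subset. The 17248 genes with a mean of at least 10 in a group were tested on log2(normalized count + 1) with limma 3.58.1 in R 4.3.3 (trended prior over the mean level, Benjamini-Hochberg adjustment over all genes, threshold 0.05). The subsets were compared by within-mouse differences, treatments within each subset, and the change with Ac-6-FP between subsets by the same differences. Contrasts of the subsets in vehicle or in Ac-6-FP mice share a spread estimated over all 10 mice. Differences of low genes on this scale need not match ratios of group means, and with libraries at 0 they can be larger or differ in sign. For Thbs1 in Ly6C hi MoMac, the log2 difference with Ac-6-FP was 3.24 beside a 1.77-fold ratio of means. Labels and methods place both libraries of a number in the same animal, and residuals of same-mouse libraries had a median correlation of 0.0338 (0.00334 to 0.25, n = 10 pairs), against -0.00319 between mice. Mice are separate animals, so p-values measure the spread between them.

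Single genes were tested with two-sided exact permutations (Python 3.11.15, scipy 1.17.1), for 10 genes in 6 comparisons. Mouse values were printed for those past the threshold or with an exact p under 0.05. From each pathway list up to 4 genes in each direction that passed were named, and for each gene above 0 everywhere the 3 most alike. The genes and lists were chosen with earlier results of these data known. Alternatives were a pseudocount of 10, no filter, a group mean of at least 100, quantile normalization, genes detected as a covariate, edgeR 4.0.16 (quasi-likelihood, TMM) on the recovered reads, no replicate block and leaving out each mouse. Of the listed genes, 5 were not matched by symbol (Clcf1, Lyz2, Serpina1a, Serpina1c, Trac).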

Additional observations from a re-analysis of the deposited data

Results flagged for a closer look

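In 11 of the 40 combinations of a gene and a group of 5 libraries, the highest library stood apart from the next by more than Dixon's 95% limit (a gap over the range of more than 0.71). Groups with all 5 libraries at 0 could not be flagged. The limit assumes normal values, which counts with many libraries at 0 are not, so no chance rate is given. In 5 of the 11 every other library of the group was at 0. Pdgfb was listed at 1598.67 normalized counts in the Ly6C low vehicle library of mouse 13, where the next value was 308.14. It was listed at 28.32 in the Ly6C hi library of Ac-6-FP mouse 20 and at 0 in the other 4 of that group. Igf1 was at 310.38 in the Ly6C hi library of Ac-6-FP mouse 16, with 61.88 next.

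Thbs1 was at 476.13 in the Ly6C hi vehicle library of mouse 11, with 84.56 next, and at 840.39 in the Ly6C low library of Ac-6-FP mouse 20, with 115.95 next. That Ly6C low library of mouse 20 was also the highest of its group for Pdgfa (12.06) and Areg (21.33) and had the highest sum of neutrophil markers of all libraries, 133215 normalized counts. Vegfa stood alone above 0 at 35.95 in the Ly6C low library of Ac-6-FP mouse 16, at 1.76 in the Ly6C hi vehicle library of mouse 13 and at 2.98 in the Ly6C hi library of Ac-6-FP mouse 20. Areg stood alone at 1.78 in the Ly6C low vehicle library of mouse 14.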

How the results depend on the processing

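The call of Tgfbi between the subsets stood in all 17 alternatives, and 101 of the 102 alternative values of the 6 tested genes in that comparison kept their direction and side of the threshold, the other being Igf1 without mouse 13. No growth factor gene passed with Ac-6-FP under any alternative. Counts over all genes moved more. For the subset difference, 1355 genes passed with genes detected per library as a covariate and 511 with edgeR, against 900. In the vehicle contrast these were 803 and 214, and 253 to 456 when a mouse was left out. In the Ac-6-FP contrast edgeR gave 199 and leaving out a mouse 286 to 635. Of the growth factor genes, 1 passed in vehicle mice with no filter or edgeR and 1 to 2 without a mouse, and in Ac-6-FP mice 1 with edgeR and 0 to 2 without a mouse. The cause was not tested.

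The replicate block is the mouse. The fit with no replicate block, which drops the pairing, called 987 genes between the subsets, 461 in vehicle and 517 in Ac-6-FP mice, and the same number of growth factor genes (2). For the change with Ac-6-FP between the subsets it called 3 genes, against 0 with the pairing. That count was 2 at a group mean of 100, 1 with quantile normalization and 0 to 4 without a mouse (4 without mouse 17).

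In the comparison of treatments, 5 genes of Ly6C hi MoMac passed with no filter, 4 at a group mean of 100, 0 with quantile normalization, the covariate or edgeR, and 0 to 133 without a mouse (133 without mouse 11). In Ly6C low MoMac 2 passed with a pseudocount of 10, no filter, a group mean of 100 or the covariate, 0 with quantile normalization or edgeR, and 0 to 103 without a mouse (103 without mouse 11). Hgf in Ly6C hi turned to -0.094 with a pseudocount of 10, -1.80 with the covariate and -0.61 with edgeR, and ranged from -0.019 to 1.67 without a mouse. In Ly6C low MoMac Pdgfb turned to -0.48 with edgeR and ranged from -0.30 to 2.36 without a mouse. Igf1 there was -0.24 with a pseudocount of 10, -0.81 with quantile normalization, -1.63 with the covariate and -0.85 with edgeR, and -1.58 to 1.21 without a mouse. Hgf there was -2.24 with the covariate and -0.41 with edgeR, and -0.20 to 2.79 without a mouse. For the change between subsets, Pdgfb turned to -1.64 and Hgf to -0.042 with edgeR, and Thbs1 to -0.41 with quantile normalization. Without a mouse the ranges were -1.28 to 1.67 for Pdgfb, -1.32 to 3.65 for Igf1, -0.45 to 2.03 for Hgf and -1.06 to 0.93 for Thbs1. In each of these the adjusted p was above 0.05 throughout.

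Depth limits Tgfb1, Pdgfa, Vegfa and Areg, whose values were mostly at or under 3 reads. A difference for them was not detectable here, and overlapping records add to the doubt for Tgfb1 and Vegfa.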
